A study of Mus musculus with 2 samples.

Results

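The bone morphogenetic protein (BMP) genes described here are 10 of the 19626 genes counted in cells of the mouse lower incisor: the ligands Bmp2, Bmp4 and Bmp7, the response genes Id1, Id2 and Id3, and the inhibitors Bambi, Smad6, Smad7 and Fst. They were chosen by their role in the pathway, with earlier results of these data known, and all 10 were found among the counted genes. Droplet libraries (10x Genomics, 3′ end tags with unique molecular identifiers, UMIs) were made from tissue around the cervical loop, epithelium and mesenchyme together, of 1 control mouse and 1 Memo1;K14CRE mouse, both at postnatal day 20 (P20). The study asks what the loss of MEMO1 does to ameloblast maturation. In Memo1;K14CRE mice Cre recombinase is driven by the keratin 14 promoter, which is active in epithelium, so mesenchyme, blood and vessels keep the gene; the labels give no genotype for the control beyond that word. There were no replicates, so nothing here measures variation between mice, no test between the groups was possible, and "higher" and "lower" describe these 2 libraries.

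In all, 9708 control cells gave 79518656 UMIs (median 2643 per cell) and 13820 mutant cells gave 120862385 (median 6798). The authors placed 2981 control and 2303 mutant cells in the ameloblast lineage. Both libraries shared 139 cell barcodes, of which 17 lay in the same cluster of all cells. Memo1 itself had 20.3 CPM (counts scaled to a total of 1e6) among control and 17.7 CPM among mutant lineage cells, a ratio of 0.872 (0.771 to 0.987). Where the deleted exons lie relative to the 3′ tags is not given in the sources used here, so these tags do not check the deletion.

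BMPs are secreted ligands of the TGF-beta family that bind paired type I and type II receptors. The receptors phosphorylate SMAD1, SMAD5 and SMAD9, which enter the nucleus with SMAD4 and switch on response genes, among them the Id genes, whose products block helix-loop-helix transcription factors. The pathway also switches on its own inhibitors: BAMBI is a receptor decoy without a kinase domain, and SMAD6 and SMAD7 block the receptors from inside the cell. Follistatin, the product of Fst, traps activins and, less tightly, some BMPs outside the cell. In teeth BMP signals pass between epithelium and mesenchyme and take part in ameloblast differentiation, and FST is known as an inhibitor of that step.

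The lineage was compared cluster by cluster with the authors' own cluster numbers, in the 8 ameloblast clusters with at least 50 cells in each library. From marker genes, cluster 3 was called secretory-like (making enamel matrix), cluster 7 maturation-like (the later, mineralizing stage), cluster 4 preameloblast-like, and cluster 1 outer enamel epithelium or stellate reticulum-like (supporting layers). Clusters 0 (led by Gnrh1 and Chchd10), 2 (Igfbp2, Krt15), 5 (Krt17, Jph4, Krt73) and 6 (Fxyd4, Fxyd3, Dspp) stay unnamed. A level is the summed count of a gene over the cells of a cluster, divided by all counts of that cluster and given as CPM. A gene was called higher or lower in the mutant library where it had at least 20 counts, its ratio was at least 1.5-fold either way and the exact 95% interval of the ratio of 2 Poisson counts excluded 1; brackets give that interval, which covers counting error only. PCR and capture noise, and the differences between cells and between mice, are outside it.

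Sequences of the start regions are shown for Id2, Id3 and Smad6, because these windows hold letters that SMAD proteins are known to bind and because the Id genes were called together in cluster 7. The windows run from 250 bases before to 50 after the RefSeq start (GRCm38.p6), and both strands were searched for GGCGCC, an element bound by SMAD1 and SMAD5, for the SMAD4 element GTCTG, which reads CAGAC on the other strand, and for the palindrome GTCTAGAC. Capitals mark the match, and each line is 5′ to 3′ on the gene's own strand.
Id2, chr12:25096306-25096335, minus strand: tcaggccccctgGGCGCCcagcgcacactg
Id3, first site, chr4:136143643-136143671, plus strand: tgtcctcggcgtCAGACcagcctaaggaa
Id3, second site, chr4:136143742-136143770, plus strand: ggacccttggcgGTCTGttttgaataagg
Smad6, chr9:64022056-64022159, minus strand: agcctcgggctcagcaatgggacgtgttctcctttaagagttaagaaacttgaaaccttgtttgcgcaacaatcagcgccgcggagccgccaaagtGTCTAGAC
The first base of the Id2 match lies 231 bases before the start. The Id3 matches begin 167 and 68 bases before the start, and the Smad6 palindrome spans it, beginning 4 bases before. Among 32851 start windows of this length, 11.9% held GGCGCC, 49.6% held GTCTG or CAGAC, and 0.213% (70 windows) held GTCTAGAC. Windows of Bmp4, Id2, Id3 and Smad6 were searched, and those of the other 6 genes were not. In the Bmp4 window none of these letters was found. A match describes the letters only and is no measure of binding. In the GENCODE M21 annotation of GRCm38 Id1 lies on chromosome 2 (152736251 to 152737410, plus strand), Id2 on chromosome 12 (25093799 to 25097140, minus), Id3 on chromosome 4 (136143497 to 136145755, plus) and Smad6 on chromosome 9 (63953076 to 64022059, minus). Bmp2 and Bmp7 lie on chromosome 2 (133552159 to 133562885, plus, and 172868012 to 172940321, minus), Bmp4 on chromosome 14 (46383520 to 46390669, minus) and Fst on chromosome 13 (114452290 to 114458951, minus). The sites shown for Id2 and Id3 lie before the RefSeq start but within the spans of these longer annotated genes.

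Over the ameloblast clusters 74 pairs of gene and cluster had enough counts to compare, and 24 were called higher and 5 lower in the mutant library. The higher calls fell on 7 of 10 genes (Bmp2, Bmp4, Id1, Id2, Id3, Bambi and Fst) and were most frequent in cluster 7, where 6 of 9 genes were called higher and 1 lower. In cluster 7, 23.5% of all genes compared were called in either direction, 9.18% higher and 14.3% lower, so calls were common there. The median log2 ratio of the 9 genes was 0.99, and that of all genes compared in the cluster was -0.07. In cluster 3, by contrast, 1 of 9 genes was called, where 15.5% of all genes were.

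**Figure D1:**
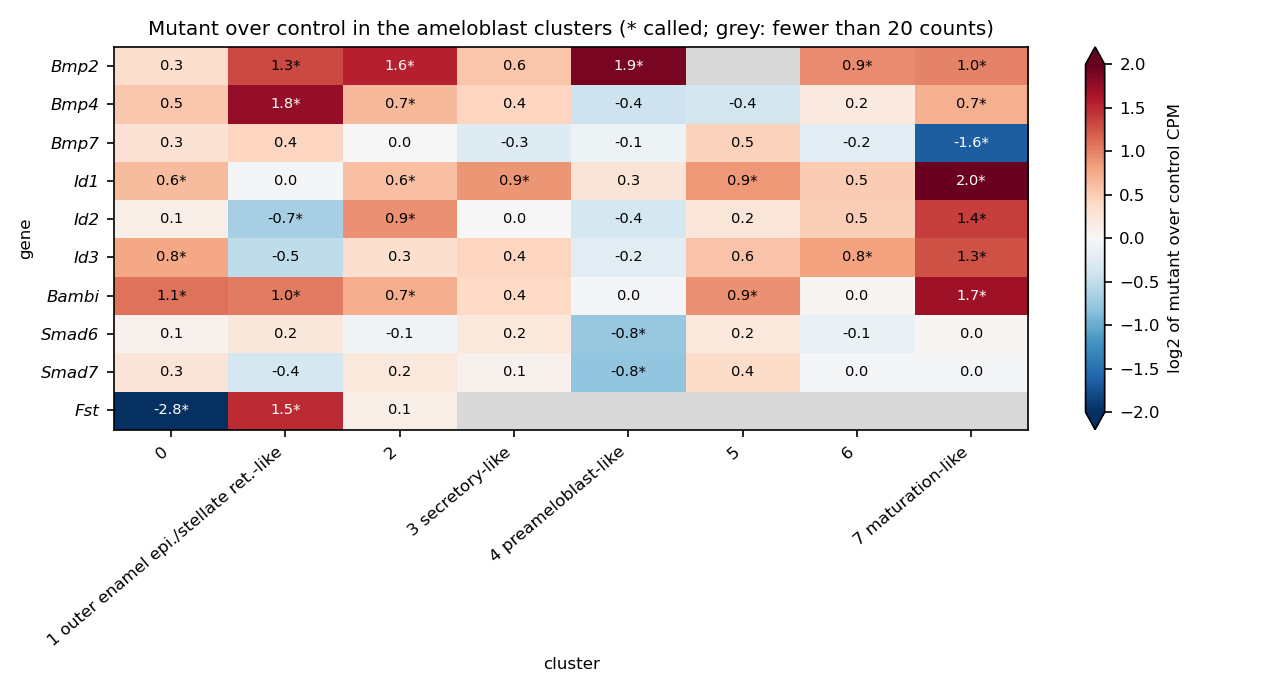
Log2 of the mutant over the control level for each of the 10 genes (vertical axis) in each of the 8 compared ameloblast clusters (horizontal axis); red is higher and blue lower in the mutant library, an asterisk marks a call, and grey marks pairs with fewer than 20 counts. The column of cluster 7 holds 6 called red squares and 1 called blue square, for Bmp7.

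In the maturation-like cluster 7 all 3 Id genes and Bambi were higher in the mutant library, while the ligands went in opposite directions. The cluster held 187 control and 78 mutant cells. Id1 stood at a control level of 151 and a mutant level of 593 CPM, 3.94-fold higher (3.46 to 4.49). Id2 stood at a control level of 102 and a mutant level of 266 CPM, 2.6-fold higher (2.19 to 3.09). Id3 stood at a control level of 125 and a mutant level of 304 CPM, 2.42-fold higher (2.07 to 2.84). These were the largest ratios each of the 3 Id genes reached among the 8 ameloblast clusters. Bambi, the receptor decoy, stood at a control level of 259.5 and a mutant level of 836 CPM, 3.22-fold higher (2.91 to 3.57), also its largest lineage ratio. Of the Id1 counts in the mutant cells, 9.86% lay in the single cell with the most. The calls of Id1, Id2, Id3 and Bambi in cluster 7 held under every alternative that gives a call, and over all alternatives the ratios ranged from 3.33 to 4.57 for Id1, 2.22 to 3.78 for Id2, 1.57 to 2.54 for Id3 and 3.06 to 3.92 for Bambi.

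The other inhibitors inside the cell did not follow. In cluster 7 Smad6 stood at a control level of 26.8 and a mutant level of 27.5 CPM, a ratio of 1.03 (0.649 to 1.6), and Smad7 at a control level of 59.6 and a mutant level of 58.5 CPM, a ratio of 0.981 (0.723 to 1.32). Neither was called, and the intervals leave room for a Smad6 level 1.54-fold lower or 1.60-fold higher. Fst had 7 control counts in cluster 7 and 0 mutant counts, which allows up to 2.58 CPM in the mutant cells, and was too sparse to compare.

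Among the ligands, Bmp7 in cluster 7 had 584 control and 94 mutant counts. It stood at a control level of 252 and a mutant level of 80.9 CPM, 3.12-fold lower (2.5 to 3.92), the only call for Bmp7 in the 8 clusters. Bmp4 went the other way, at a control level of 171 and a mutant level of 280.4 CPM, 1.64-fold higher (1.42 to 1.91). Both ligands were highest in cluster 7 among the lineage clusters of each library, and next came the secretory-like cluster 3, with 73.2 and 61.2 CPM of Bmp7, in the mutant library with an interval overlapping that of cluster 8. Over the alternatives the ratio of Bmp4 in cluster 7 ranged from 1.62 to 4.41 and that of Bmp7 from 0.311 to 0.417. Bmp2 had 30 counts in each library, 1.99-fold higher (1.16 to 3.42) as CPM, but 40% of its mutant counts came from 1 cell. Without the cell with the most Bmp2 in each library its ratio was 1.46 and it was not called.

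Other values moved with these calls in cluster 7. The summed level of 7 maturation markers was 38073 CPM among control and 6048 CPM among mutant cells, with 7 of 7 lower, and that of 4 secretory markers was 218571 and 310879 CPM, with 2 higher and 1 lower. The fibroblast list of 8 genes summed to 75.6 and 213.3 CPM, with 4 of the 5 compared higher and Tnmd at 0 in both libraries. Endothelial markers summed to 13.0 and 22.4 CPM. Median depth was 5513 and 8059 UMIs per cell. The part of these values in the ratios of the BMP genes was not tested.

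The rest of the pathway in cluster 7 was read from 7 lists of genes by role. Of the receptors and co-receptors, 0 of 5 compared were called: the type II receptor Bmpr2 was at a control level of 80.3 and a mutant level of 63.6 CPM, and the type I receptor Bmpr1a, named after its values were seen, at a control level of 45.8 and a mutant level of 54.2 CPM. Of 6 SMAD transducers, Smad9 was higher on few counts (6 control and 14 mutant counts) and Smad3, which carries TGF-beta and activin signals, was 1.87-fold lower (1.1 to 3.34). Among 7 target transcription factors 3 were higher and 1 lower. Msx2, a homeobox gene of the enamel epithelium, stood at a control level of 271 and a mutant level of 533 CPM, 1.97-fold higher (1.76 to 2.2). Id4 was 1.53-fold and Dlx2 1.57-fold higher, whereas Runx2, needed in maturation-stage ameloblasts and in bone, was 2.07-fold lower (1.78 to 2.41).

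On the lists of further BMP genes and of TGF-beta and activin genes, 5 had enough counts in cluster 7, of which 3 were lower and none higher. Bmp1, the only one from the BMP list and not a ligand but a protease that also cleaves the BMP antagonist chordin, was 3.79-fold lower (2.42 to 6.21) with 71.7 against 18.9 CPM. Tgfb1 was 3.22-fold lower (2.75 to 3.79) with 499 against 155 CPM. Of 7 antagonists compared, 3 were lower and 1 higher. Cer1, which binds BMPs and Nodal, was 7.2-fold lower on 43 control and 3 mutant counts. Fstl3, an activin binder related to follistatin, had 50 control counts and 0 mutant counts, at least 8.37-fold lower against a floor of 3 counts in the mutant library. Inhbb, an activin subunit, had 26 and 0 counts, at least 4.35-fold lower. Sostdc1, an antagonist of BMP and WNT signals, was lower too (61 control and 5 mutant counts), but 86.9% of its control counts lay in 1 cell. Fstl1 was the antagonist called higher, 1.89-fold. Of 6 intracellular SMAD regulators only Smurf2, a ubiquitin ligase acting on SMADs and their receptors, was called, 1.96-fold lower.

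**Figure D2:**
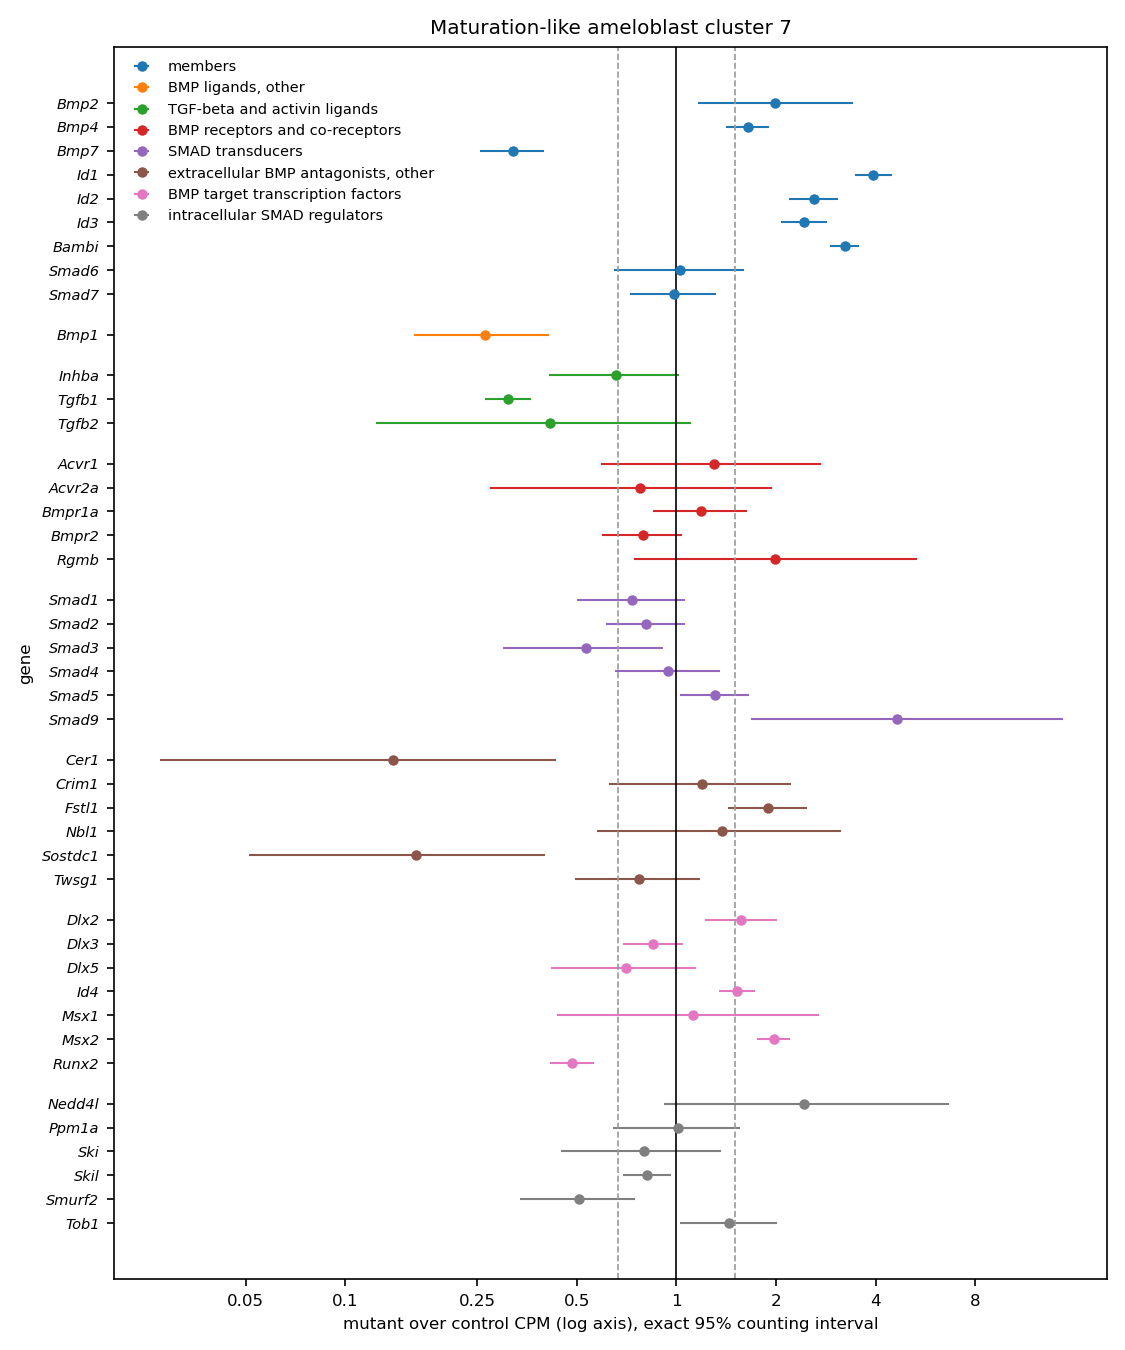
Mutant over control level in ameloblast cluster 7 (horizontal, log axis) with exact 95% counting intervals for each of the BMP genes and the pathway genes with at least 20 counts and a count in both libraries, coloured by list; dashed lines mark 1.5-fold. The Id genes, Bambi and Msx2 lie to the right of the upper line, and Bmp7, Bmp1, Tgfb1, Cer1 and Runx2 to the left of the lower one; Fstl3 and Inhbb, with 0 mutant counts, are not drawn.

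Outside cluster 7 the Id genes differed from each other. Id1 was called higher in 4 more clusters and lower in none. It stood at a control level of 112 and a mutant level of 206 CPM in the secretory-like cluster 3, 1.84-fold higher (1.7 to 2.0), and at a control level of 351 and a mutant level of 642 CPM in cluster 5, 1.83-fold higher (1.7 to 1.97). In clusters 0 and 2 its ratios, 1.55-fold and 1.51-fold, lay at the limit and lay under it with TMM factors (1.49 and 1.35). Cluster 1 showed no such difference for Id1, with 265 against 256 CPM. Id2 was 1.89-fold higher (1.67 to 2.15) in cluster 2 and 1.58-fold lower (1.19 to 2.15) in cluster 1, the only lower call of an Id gene in the lineage. Under stricter cell limits (1000 UMIs, 500 genes, at most 10% mitochondrial counts) the ratios were 1.4 and 0.703 for Id2 in those clusters and 1.41 for Id1 in cluster 5, and none was called. With cells thinned to 1000 UMIs the Id2 ratio of cluster 1 was 0.983. Id2 hardly differed in the secretory-like cluster, with 119 against 118 CPM, a ratio of 0.991 (0.906 to 1.08). Id3 was 1.71-fold higher (1.58 to 1.85) in cluster 0 and 1.76-fold higher (1.6 to 1.92) in cluster 6. In cluster 1 Id3 was at a control level of 1206 and a mutant level of 848 CPM, a ratio of 0.703 (0.642 to 0.769) that did not reach the 1.5-fold limit. Over the whole lineage, where 17.2% of genes were called, Id1 was 1.51-fold higher (1.46 to 1.56), and Id2 (1.22 (1.17 to 1.28)) and Id3 (0.91 (0.889 to 0.932)) were not called. Ratios over the lineage also carry its make-up: cluster 1 held 18.1% of the lineage UMIs in the control and 2.51% in the mutant library, cluster 3 held 23.8% and 37.8%, and cluster 6 held 12.6% and 20%. With the control library's cluster shares in both libraries, a calculation added after the data were seen, the ratios were 1.61 for Id1, 1.21 for Id2 and 1.12 for Id3, the last on the other side of 1.

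The shares of all genes called in those clusters were 15.4% in cluster 0, 13.1% in cluster 1, 19.0% in cluster 2, 8.01% in cluster 4, 18.0% in cluster 5 and 17.5% in cluster 6. The genes of the set called there numbered 4 of 10, 5 of 10, 5 of 10, 3 of 9, 2 of 8 and 2 of 9, in the same order. In clusters 5 and 6 the share was thus near the background. The median of all genes stood above 0 in clusters 2, 3, 5 and 6, by 0.16, 0.14, 0.24 and 0.22 on the log2 scale, and factors from edgeR (TMM) or DESeq2 took that shift away. The log2 ratio of Id1, 0.87 in cluster 5 and 0.88 in cluster 3, stood 0.64 and 0.74 above that median.

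Immediate early genes respond within minutes to many stimuli, the dissociation of tissue among them, and moved with some of these calls. This list of 13 genes was chosen after the values were seen. In cluster 0, 12 of 13 were higher in the mutant library, in cluster 3, 8 of 13, in cluster 5, 10 of 13 with Atf3 lower, and in cluster 6, 6 of 13. In cluster 1, where Id2 was lower, 13 of 13 were lower, with a summed level of 5308 and 790.3 CPM. In cluster 7 the sums were 1095 and 985.7 CPM, with 2 of 12 higher and 3 lower, while the 3 Id genes were higher. The fibroblast list was also higher in the mutant library in cluster 0 (389.9 and 876.9 CPM), cluster 3 (39.1 and 97.8 CPM) and cluster 5 (87.9 and 155.6 CPM). The part of either list in the Id ratios of these clusters was not tested.

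**Figure D3:**
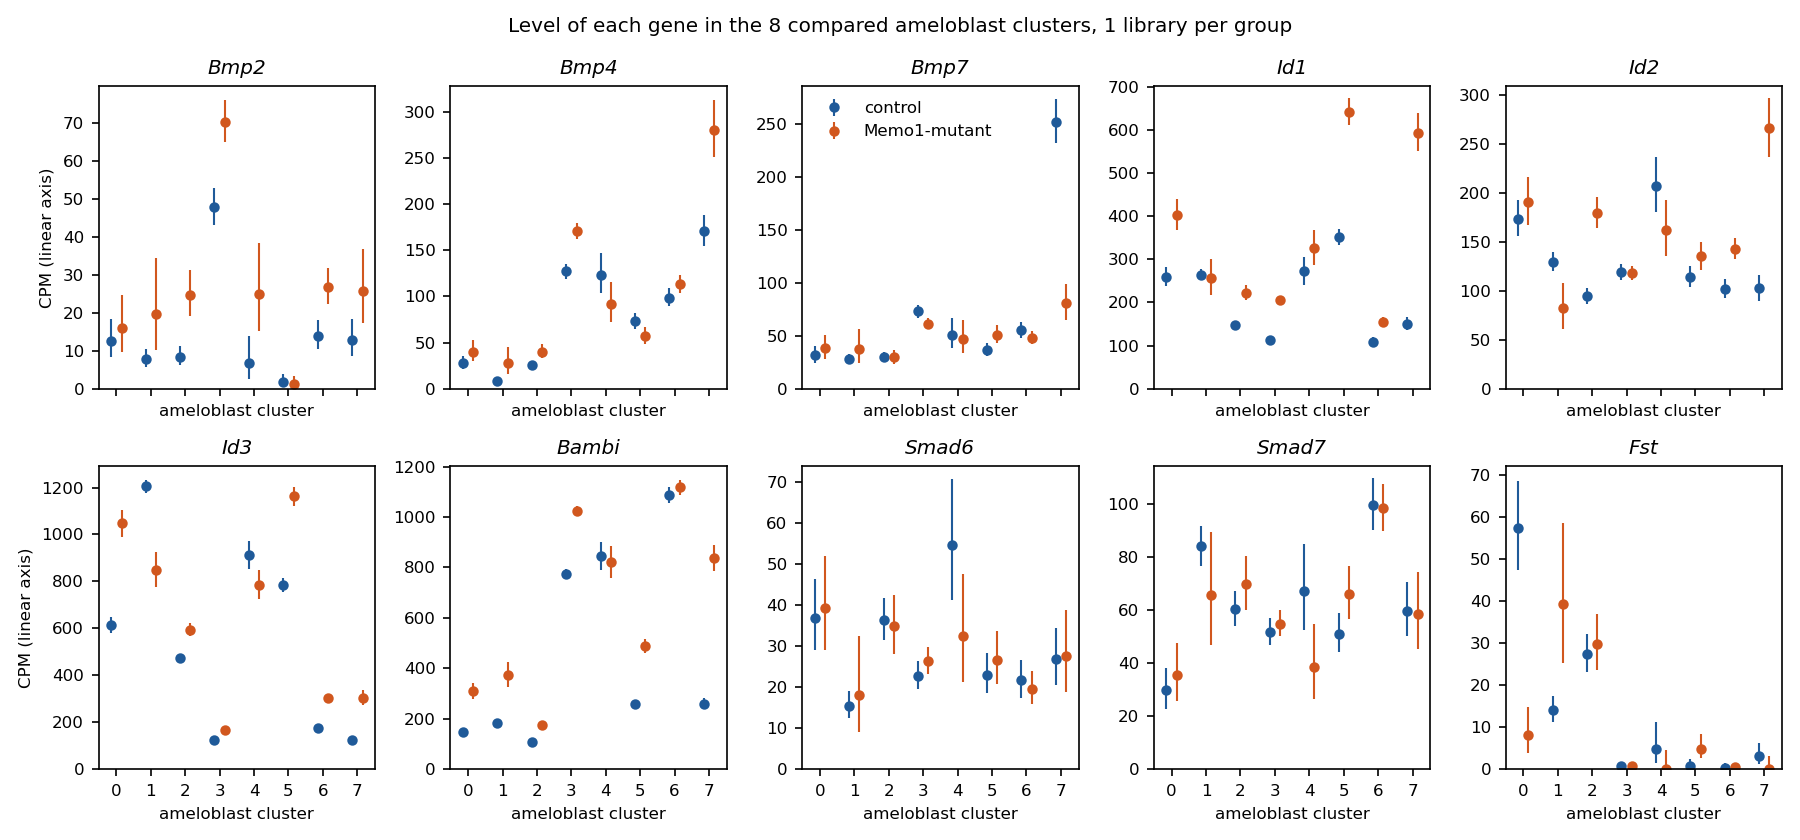
Level of each of the 10 genes in CPM (linear vertical axes, each with its own scale, starting at 0) in the 8 compared ameloblast clusters, for the control (blue) and mutant (orange) library; bars are exact 95% Poisson intervals. In cluster 7 the mutant points of Id1, Id2, Id3, Bambi and Bmp4 lie above and that of Bmp7 below the control points, with intervals apart.

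Levels within the lineage gave each gene its own order of clusters. Id1 was highest in cluster 5 in both libraries, at a control level of 351 and a mutant level of 642 CPM; in the mutant library cluster 7 came next, with an interval that overlapped that of cluster 5. Id3 was highest in cluster 1 of the control library (1206 CPM) and in cluster 5 of the mutant library (1163 CPM), and lowest in the secretory-like cluster 3 of both, at a control level of 125 and a mutant level of 168 CPM, where the control interval overlapped that of cluster 7. Id2 was highest in the preameloblast-like cluster 4 of the control library (207 CPM) and in cluster 7 of the mutant library (266 CPM). Bambi was highest in cluster 6 (a control level of 1087 and a mutant level of 1118 CPM), and its lowest control level was in cluster 2 (106 CPM).

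In the control library Bmp4 ranged from 8.23 CPM in cluster 1 to 124 CPM in the preameloblast-like, 127 CPM in the secretory-like and 171 CPM in the maturation-like cluster, of which the preameloblast-like and secretory-like levels had overlapping intervals. Besides cluster 7, Bmp4 was called higher in the mutant library in cluster 2, 1.57-fold higher (1.22 to 2.03), and in cluster 1, 3.4-fold higher (1.83 to 6.01) on 17 mutant counts. The call in cluster 2 was lost with TMM factors (1.4). In the secretory-like cluster Bmp4 was at a control level of 127 and a mutant level of 171 CPM, a ratio of 1.35 (1.24 to 1.46). Over the lineage it was 1.57-fold higher (1.49 to 1.66), but 1.32-fold, under the limit, with the control library's cluster shares in both libraries. Bmp7 apart from cluster 7 had ratios between 0.836 in cluster 3 and 1.38 in cluster 5, none called, and a lineage ratio of 0.861 (0.802 to 0.925), or 0.797 with the control's shares.

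Bmp2 levels in most of the lineage were low, so its level in a cell type outside the lineage is given beside them. In the erythroid-like all-cell cluster 18, red blood precursors that should not make Bmp2, it stood at a control level of 5.21 and a mutant level of 19.7 CPM, with 35.3% of those mutant counts in 1 cell. The lineage levels outside the secretory-like cluster lay between 1.83 and 14 CPM in the control and between 1.12 and 26.9 CPM in the mutant library. They lay near the erythroid-like levels. The calls of Bmp2 in clusters 1, 2, 4, 6 and 7 (2.5-fold, 2.93-fold, 3.72-fold, 1.92-fold and 1.99-fold higher) rest on such low levels. Free RNA was not measured, and its part in these calls was not tested. With cells thinned to 1000 UMIs the Bmp2 ratio of cluster 2 was 0.358. Cells outside the lineage held more Bmp2 as well, at a control level of 111 and a mutant level of 151 CPM. In the secretory-like cluster Bmp2 was clearly above the erythroid-like level. There it was at a control level of 47.9 and a mutant level of 70.4 CPM, a ratio of 1.47 (1.29 to 1.68) just under the limit.

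Bambi was the inhibitor with the most calls, 5 higher and 0 lower of 8. Next to cluster 7, it was 2.12-fold higher (1.82 to 2.47) in cluster 0, 2.06-fold higher (1.77 to 2.37) in cluster 1, 1.89-fold higher (1.74 to 2.05) in cluster 5 and 1.65-fold higher (1.46 to 1.87) in cluster 2, the last lost with TMM factors (1.47). Where Bambi was high in the control library, in clusters 3, 4 and 6, it was not called. There it stood at a control level of 774 and a mutant level of 1024 CPM in cluster 3, 844 against 820.2 CPM in cluster 4 and 1087 against 1118 CPM in cluster 6. In the mutant library cluster 7 thus came up to the level of cluster 4, with overlapping intervals. Over the lineage Bambi was 1.71-fold higher (1.67 to 1.74), and 1.41-fold, under the limit with the control library's cluster shares in both libraries.

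Smad6 and Smad7, which BMP signalling also induces, were flat across most of the lineage. Apart from cluster 4 the Smad6 ratios ran from 0.908 to 1.17 and those of Smad7 from 0.783 to 1.29, none called. In the preameloblast-like cluster 4 both were lower. Smad6 was at a control level of 54.6 and a mutant level of 32.4 CPM, 1.68-fold lower (1.04 to 2.79), and Smad7 at a control level of 67 and a mutant level of 38.6 CPM, 1.74-fold lower (1.12 to 2.74). These rest on 26 and 31 mutant counts, and the Smad6 call was lost with TMM factors (0.630). With cells thinned to 1000 UMIs too few counts were left to compare either gene. In cluster 4 the median depth was 1996 UMIs per control and 1028 per mutant cell, and its part in these calls was not tested. The lineage ratios were 1.03 (0.929 to 1.14) for Smad6 and 1.03 (0.964 to 1.1) for Smad7.

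Fst was above 5 CPM in either library only in clusters 0, 1 and 2 of the ameloblast clusters, and its calls pointed both ways. In cluster 0 it was at a control level of 57.4 and a mutant level of 8.04 CPM, 7.14-fold lower (3.75 to 15.3) on 118 control and 10 mutant counts. In cluster 1 it was at a control level of 14.1 and a mutant level of 39.4 CPM, 2.81-fold higher (1.7 to 4.47) on 82 control and 24 mutant counts, and without the 5% of cells with the most UMIs the ratio was 1.76 and not called. Cluster 2 showed no call, with 27.4 against 29.7 CPM. In cluster 0 erythroid markers, too, were lower in the mutant library, at 15875 and 6271 CPM in sum, and their part was not tested. Over the lineage Fst was 2.02-fold lower (1.65 to 2.47), but with the control library's cluster shares in both libraries the ratio was 1.17, on the other side of 1. The mutant library held 91 cells of an ameloblast cluster 8 that the control library lacked, and Fst had 0 counts there, which allows up to 3.02 CPM. Fst was too sparse to compare in ameloblast cluster 5. In all-cell cluster 20, which held 98.7% of ameloblast cluster 5, Fst was called higher, 6.07-fold. Over the alternatives that ratio ranged from 2.86 to 8.91.

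In the remaining lineage clusters the pathway lists showed a few larger differences. In cluster 6, 17.5% of all genes were called, and the median log2 ratio of all genes was 0.22. Of 8 target transcription factors there, 6 were higher, among them Hey1 (4.92 against 25 CPM, 5.09-fold), Runx2 (2.46 against 15.7 CPM, 6.39-fold), Msx1 (9.59 against 30 CPM, 3.13-fold) and Dlx5 (20.2 against 44.8 CPM, 2.22-fold). The folds of Hey1 and Runx2 rest on low control levels. Msx1 was also called higher in clusters 0, 2, 3 and 5, and Hey1, a target shared with Notch, in clusters 0, 2 and 5. Sostdc1, in the tooth a brake on BMP and WNT signals, went in both directions: it was 2.84-fold higher (2.62 to 3.09) in cluster 1 with 427 against 1213 CPM, 2.18-fold lower (2.04 to 2.32) in cluster 2 with 922 against 424 CPM, and 1.88-fold lower in cluster 0. Noggin (Nog), a high-affinity BMP trap, was 2.26-fold lower (1.5 to 3.5) in cluster 0. In cluster 1 the co-receptor gene Rgma was 4.84-fold lower (2.53 to 10.7), Inhba was 4.87-fold and Inhbb 7.38-fold lower, and Skil, a SMAD co-repressor induced by TGF-beta, was 5.75-fold lower; all 13 immediate early genes were lower there. In clusters 3 and 4, 0 of 6 and 0 of 5 SMAD transducers were called, and in clusters 0, 1 and 5 likewise 0 of 5, 0 of 5 and 0 of 6. In cluster 2 Smad9 was called higher, 1 of 6, and in cluster 6 Smad3 and Smad9 were, 2 of 6. Smad9 was also called higher over the whole lineage.

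Across all cell types, taken from the authors' 29 clusters of all cells (all-cell clusters), Bmp2 had its highest level in another cluster than Bmp4 and Bmp7. Bmp2 was highest in cluster 3 (led by Fmod, Ifitm1 and Tnc), at a control level of 409.7 and a mutant level of 420.2 CPM. Bmp4 was highest in the odontoblast-like cluster 22 of the control library (232 CPM), with an interval overlapping that of cluster 5 (212 CPM), and in the maturation-like cluster 24 of the mutant library (284 CPM), and the endothelium-like cluster 15 held 169.9 and 249.9 CPM. Bmp7 was highest in the maturation-like cluster 24 of the control library (249 CPM), with cluster 13 (Bmp3, Dkk2) next at 103 CPM and an interval overlapping that of cluster 5; in the mutant library cluster 24 (77.5 CPM) could not be separated from cluster 3 (77.5 CPM). The maturation-like cluster was thus among the highest clusters for both Bmp4 and Bmp7.

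The Id genes had high levels outside the epithelium. In cluster 6 (Smoc2, Thbs4, Dlk1) Id1 stood at a control level of 574 and a mutant level of 635 CPM, Id2 at a control level of 1173 and a mutant level of 1087 CPM and Id3 at a control level of 2607 and a mutant level of 2314 CPM. For Id1 the intervals of cluster 5 in the control library and of the lineage cluster 20 in the mutant library (628 CPM) overlapped that of cluster 6, and for Id3 cluster 3 was higher in the mutant library (2780.4 CPM). The macrophage-like cluster 4 came next for Id2 (a control level of 973 and a mutant level of 1051 CPM) while holding only a control level of 21.9 and a mutant level of 38.7 CPM of Id1, close to the 22.5 and 33 CPM of the erythroid-like cluster. Bambi was highest in cluster 25 (a control level of 1289 and a mutant level of 1204 CPM). That cluster was named preameloblast-like with secretory ameloblast as its second match, and it held 61.8% of the unnamed ameloblast cluster 6. Next for Bambi came the odontoblast-like cluster 22 of the control library (987 CPM), with an interval overlapping that of cluster 19, and the secretory-like cluster 14 of the mutant library (1016 CPM). Smad6 was highest in cluster 3 (a control level of 154 and a mutant level of 195 CPM), in the mutant library with an interval overlapping that of cluster 17 (183 CPM). Smad7 was highest among the compared clusters in the endothelium-like cluster 8 (a control level of 181 and a mutant level of 166 CPM), and the T or NK cell-like cluster 27, not compared, held 255 CPM in the mutant library and had an overlapping interval in the control library. Fst reached its highest level in the Schwann-like cluster 26, at a control level of 277 and a mutant level of 197 CPM, on 17 control and 105 mutant cells, too few to compare.

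**Figure D4:**
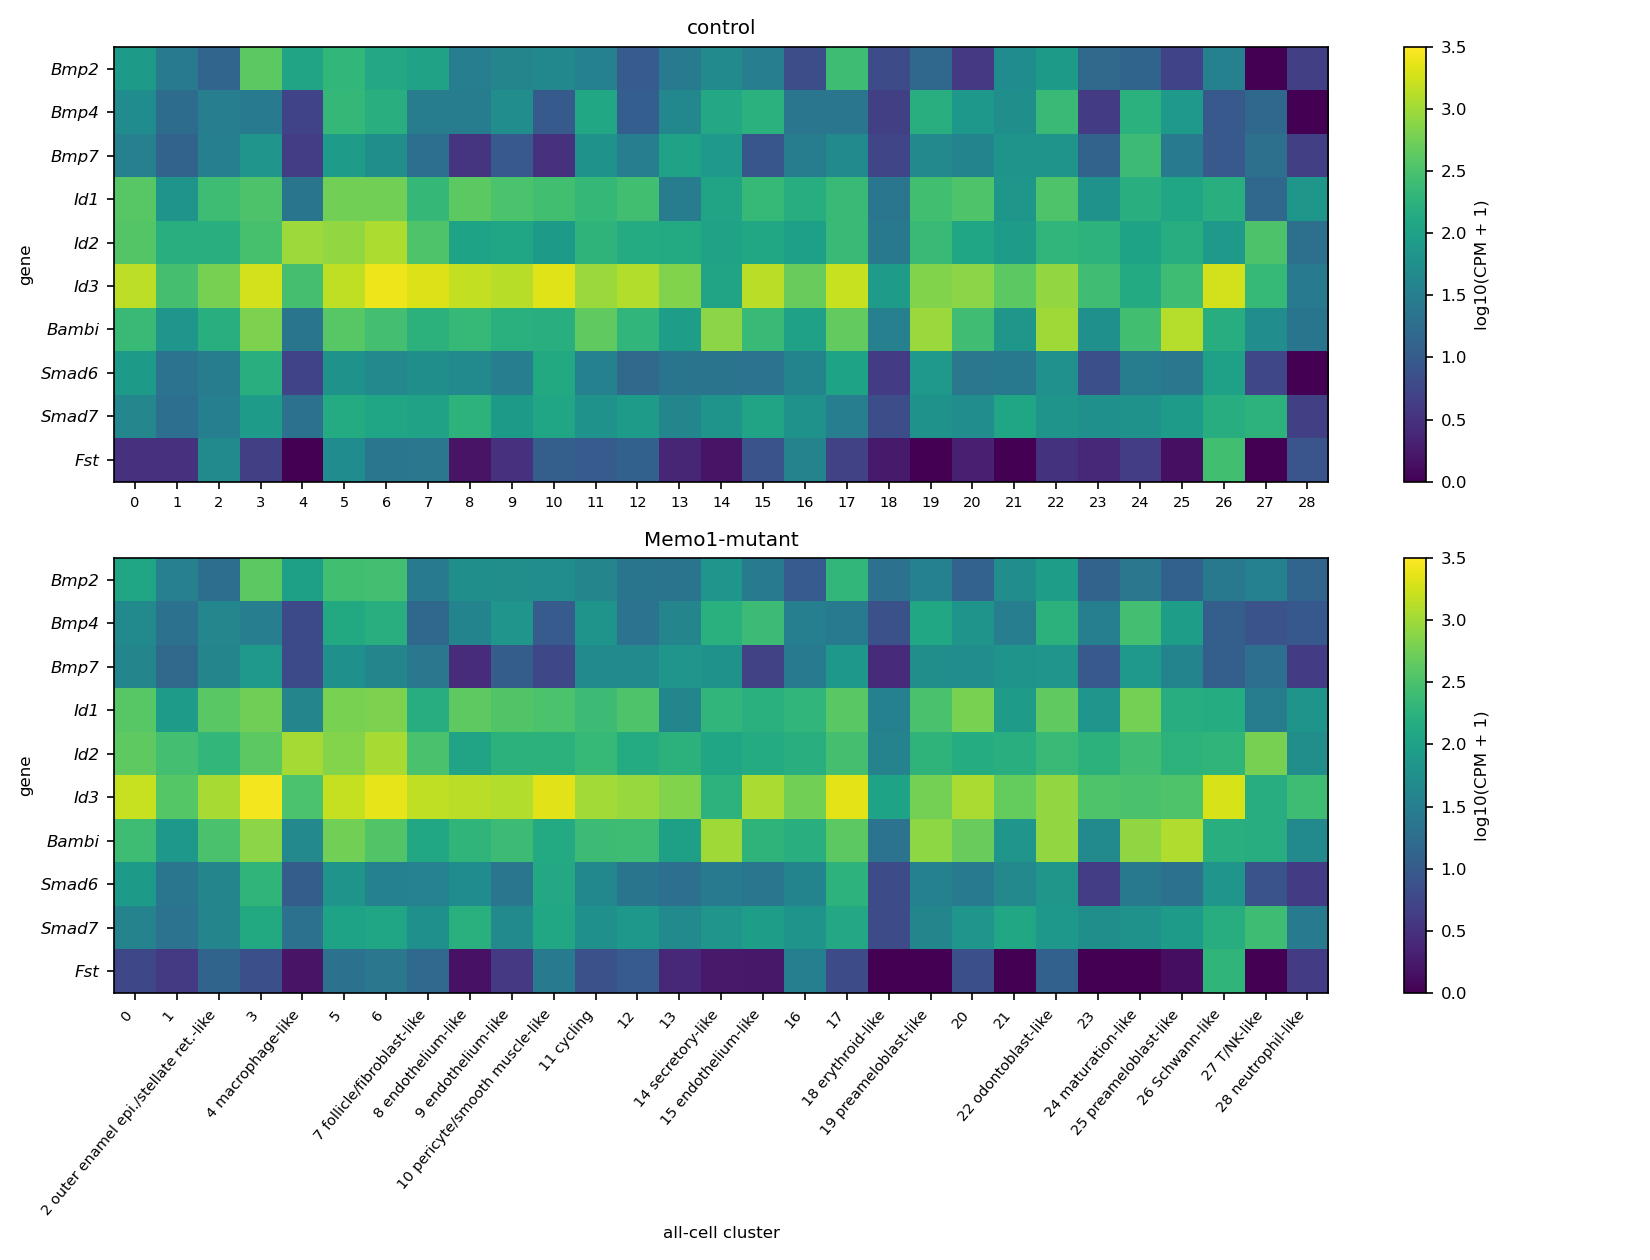
Level of each gene (vertical axis) in the 29 clusters of all cells (horizontal axis) as log10(CPM + 1) by colour, with the control library above and the mutant library below. Bmp2 is brightest in cluster 3, Bambi in ameloblast and odontoblast clusters, and Fst in cluster 26. Each row is to be read across the clusters, and rows of different genes are not to be compared with each other.

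Of the all-cell clusters 26 could be compared. Of these 8 held lineage cells only, and there the share of all genes called was 11.5% in cluster 2, 17.2% in cluster 12, 16.7% in cluster 14, 20% in cluster 16, 8.21% in cluster 19, 17.5% in cluster 20, 23.5% in cluster 24 and 15.4% in cluster 25, with 22 higher and 3 lower calls of the 10 genes. Their cells are largely those of the ameloblast clusters, so these calls are not independent of those given above. Over all 26 clusters 241 pairs of gene and cluster were compared. Outside the lineage 18 clusters could be compared, and of 165 pairs 20 were called higher and 14 lower. With these cells pooled, where 11.3% of genes were called, Fst was the only gene of the 10 called, at a control level of 6.23 and a mutant level of 9.47 CPM, 1.52-fold higher (1.33 to 1.74). That ratio also carries the make-up of the pool, whose part was not tested. The Schwann-like cluster 26, highest for Fst, held 17 of 6727 control and 105 of 11517 mutant cells. In the 8 clusters outside the lineage where Fst was compared, it was called higher in 3 and lower in 3. Id1 was in the pool at a control level of 225 and a mutant level of 312 CPM and Bambi at a control level of 297 and a mutant level of 309.9 CPM. The fibroblast-like cluster 7 (102 control and 770 mutant cells) held 5 lower calls, where 10.3% of all genes were called and 4.76% were lower. Bmp2 was at a control level of 104 and a mutant level of 26.7 CPM, 3.9-fold lower (3.09 to 4.9). Bmp4 was 2.04-fold, Smad7 1.85-fold, Smad6 1.58-fold and Fst 1.65-fold lower there. Under stricter cell limits Smad6 and Fst were not called, and with cells thinned to 1000 UMIs the Fst ratio was 1.46. Of 13 immediate early genes 11 were lower in the same cluster, and their part was not tested.

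In cluster 3, the main Bmp2 source, where 10.7% of genes were called and 5.06% were higher, Bmp2 itself did not differ (1.03 (0.98 to 1.07)). Id1 was at a control level of 327 and a mutant level of 547 CPM, 1.67-fold higher (1.59 to 1.76), and Id3 at a control level of 1809 and a mutant level of 2780.4 CPM, 1.54-fold higher (1.51 to 1.57). Smad7 was 1.64-fold and Fst 1.71-fold higher. Under stricter cell limits none of the 4 was called, with ratios of 1.42, 1.29, 1.47 and 2.09. Here 12 of 13 immediate early genes were lower, and their part was not tested. In cluster 6, where 7.88% of genes were called, Bmp2 was the only call of the 10, at a control level of 129 and a mutant level of 287 CPM, 2.22-fold higher (1.99 to 2.47).

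Single cell types gave further calls. In the macrophage-like cluster 4 (10.3% of genes called) Bambi (21.6 against 43.6 CPM), Id1 (21.9 against 38.7 CPM) and Smad6 (4.05 against 9.78 CPM) were higher. The erythroid-like cluster held 32.1 against 20.8 CPM of Bambi, 22.5 against 33 CPM of Id1 and 3.21 against 5.21 CPM of Smad6. In the pericyte-like cluster 10 (9.25%) Id2 was 2.2-fold higher (1.84 to 2.64) with 80.4 against 177 CPM, and Fst 2.63-fold higher (1.61 to 4.52). In the cycling cluster 11 (17.4%) Bmp4 was 1.97-fold lower (1.66 to 2.34) with 124 against 63 CPM, and Bambi 1.74-fold lower (1.6 to 1.9) with 442 against 253 CPM, while 12 of 13 immediate early genes were higher. In cluster 13 (6.85%) Bmp7 was 1.58-fold lower (1.4 to 1.79), from 103 CPM in the control library, its highest level there outside the lineage, with an interval overlapping that of cluster 5. In cluster 5 (8.41%; 92 control cells) Fst was 2.52-fold lower (1.71 to 3.62) and Bmp4 1.61-fold lower (1.35 to 1.91). In the endothelium-like cluster 8 (7.33%) Bmp2 was 1.82-fold higher (1.48 to 2.25), and in cluster 9 (7.70%) Bambi was 1.53-fold higher and Smad7 1.78-fold lower. With cells thinned to 1000 UMIs the Bambi ratio of cluster 9 was 0.934, and neither call of cluster 11 held.

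The remaining calls rest on few counts or shallow cells. In cluster 17 (9.48%) Smad7 was 4.22-fold higher on 8 control counts, with Id1 1.76-fold and Smad6 1.73-fold higher. In the odontoblast-like cluster 22 (5.64%) Fst was 5.0-fold higher (2.2 to 12.8) on 8 control and 26 mutant counts. In cluster 23 (10.3%) Bmp4 had 2 control and 48 mutant counts, 58.3% of the latter in 1 cell. In the endothelium-like cluster 15 (10.8%) all 16 control counts of Fst lay in 1 cell and 50% of those of Bmp7 in 1 cell. Id2 was 1.78-fold higher in cluster 1 (8.81%) and 1.86-fold in cluster 21 (19.2%). The erythroid-like cluster 18 (10.7%) gave calls for Bmp2, higher, and Bambi, 1.54-fold lower, at its own low levels, and with thinned cells the Bambi ratio was 1.52. In cluster 0 (14.2%) none of the 10 was called.

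**Figure D5:**
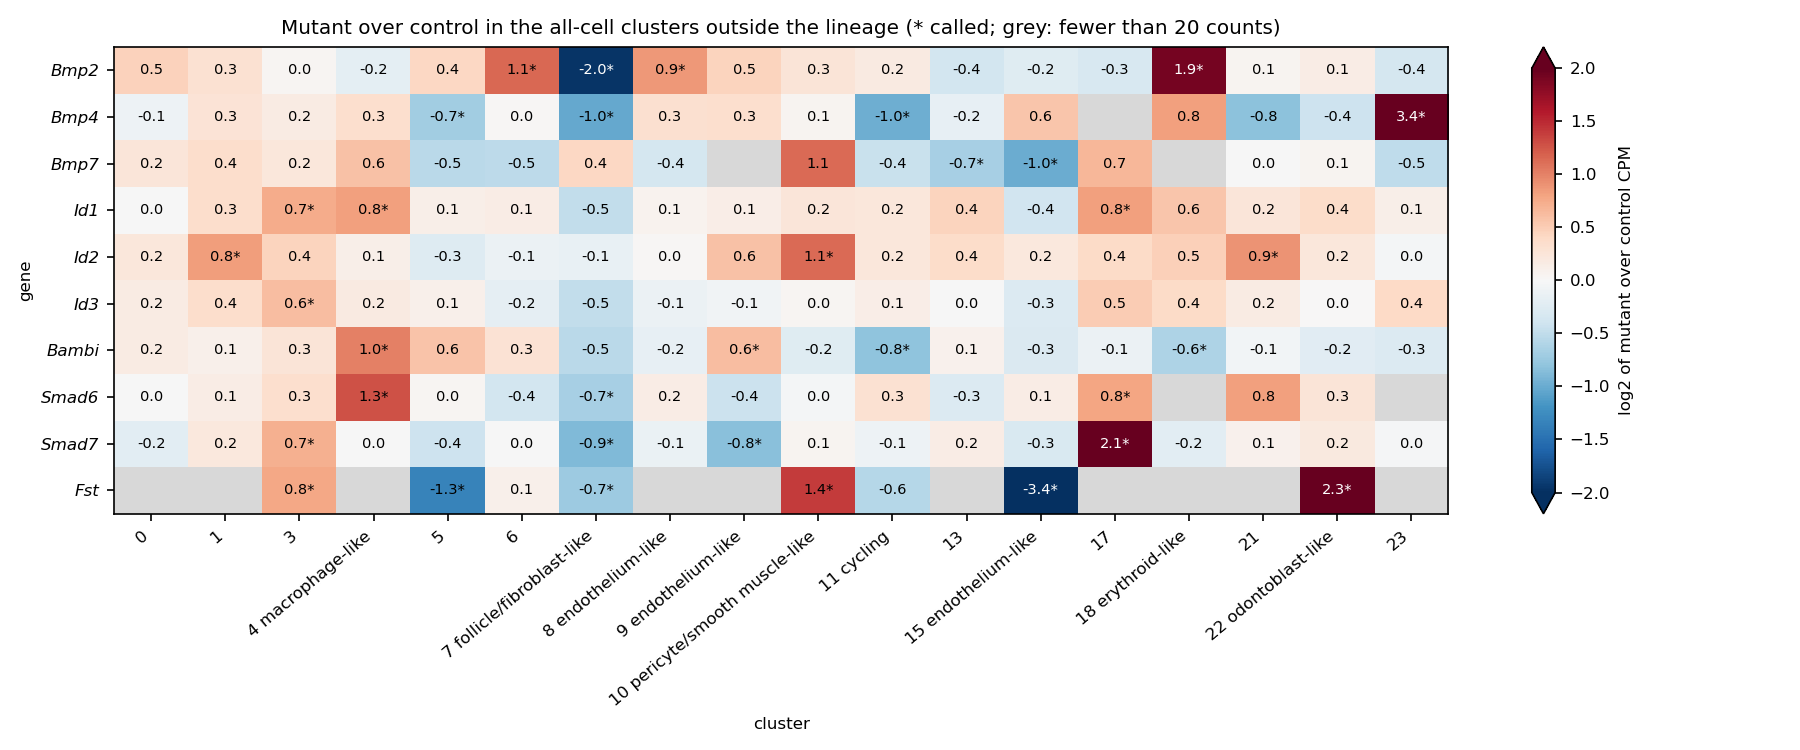
Log2 of the mutant over the control level for each gene (vertical axis) in the 18 compared clusters outside the ameloblast lineage (horizontal axis), coloured as in the plot of the ameloblast clusters, with asterisks for calls and grey for fewer than 20 counts. Blue calls gather in the fibroblast-like cluster 7, and in no column are Id1, Id2, Id3 and Bambi all called.

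Each gene was also matched with the genes whose levels followed it most closely over 34 clusters in 2 libraries (68 points; Pearson's r of log2(CPM + 10), a description over points that share libraries and cells). Bambi was followed by Asns (r = 0.85) and P4ha2 (0.84), and it was itself among the 3 genes nearest to Bmp4 (0.71), after Sh3bgrl2 (0.73). Id3 was nearest to Thra (0.87), Bmp7 to Msi1 (0.82), Bmp2 to Olfml1 (0.81), Smad7 to Setd5 (0.83) and Smad6 to Ddb1 (0.79). Id1 was nearest to Arid5b (0.75), Id2 to Tbc1d4 (0.77) and Fst to Fbxo44 (0.75). None of the 3 Id genes was among the 3 nearest to another.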

How the data were processed

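Per the submitters' processing notes, Cell Ranger (version not given) and Seurat 3 were used with mm10. The deposited matrix holds whole-number counts of UMIs for 19626 genes in 23528 cells, with the authors' cluster number of each cell, among all cells and within the ameloblast lineage; the choice of lineage cells is not given in the sources used here. Cells held 501 to 49967 UMIs. Each library is 1 mouse, so the comparison is of 2 libraries, without p-values.

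For each cluster and library the counts of a gene were added up and divided by the cluster total (CPM). The ratio has an exact 95% conditional Poisson interval, and 0 counts were set against a floor of 3. Clusters were compared where both libraries had at least 50 cells. The 10 genes and the pathway lists were chosen with earlier results of these data known. All 10 were compared in every such cluster where they had at least 20 counts. Not all of these pairs are given in the text, so a gene left out need not have had few counts. From each pathway list up to 4 called genes per cluster could be named, those whose nearer interval bound lies farthest from 1. A cluster was named where at least 3 markers of a type stood 1.5-fold or more above all other cells pooled. The mean log2 fold of that type's markers had to be at least 1, with a marker among the cluster's 10 leading genes. No name was given where another type had more markers among those 10. Ameloblast clusters were matched with epithelial types only. These limits follow an earlier analysis of the same data. Names rest on rebuilt labels, since the authors' numbers carry none. Doublets were not called.

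Alternatives were TMM factors (edgeR 4.0.16), median-of-ratios factors (DESeq2 1.42.0), totals without transcripts of at least 1%, stricter cell limits, thinning to 1000 UMIs per cell, per-cell CPM averaged, removal of the deepest 5% of cells or of the cell richest in the gene, limits of 5 or 100 counts, and all-cell clusters without lineage cells. Chosen after seeing the data were cells with at least 1000 UMIs, leaving out 1 mutant cell, and lineage ratios with the control's share of UMIs per cluster in both libraries. The intervals were tested on simulated Poisson counts, the model they assume. These counts hold no extra spread between cells, so the intervals were not tested against such spread. Work was done in Python 3.11.15 (numpy 2.4.6, pandas 2.3.3, scipy 1.17.1, matplotlib 3.10.9) and R 4.3.3.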

Additional observations from a re-analysis of the deposited data

Results flagged for a closer look

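Several of the genes were called in opposite directions in different clusters, and in no case was the difference between the clusters tested. In the ameloblast clusters Id2 had a mutant over control ratio of 2.6 in the maturation-like cluster 7 and of 0.633 in cluster 1, and Fst had 2.81 in cluster 1 and 0.140 in cluster 0.

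Among the clusters of all cells 7 genes were called higher in some clusters and lower in others. The ratios given are, in each direction, those of the call whose nearer interval bound lies farthest from 1. They need not be the highest or lowest called ratios. For the ligands they were 4.17 in the lineage cluster 20 and 0.256 in the fibroblast-like cluster 7 for Bmp2, 10.4 in cluster 23 and 0.508 in the cycling cluster 11 for Bmp4, and 1.51 in the lineage cluster 12 and 0.311 in the maturation-like cluster 24 for Bmp7. For the inhibitors they were 3.01 in the maturation-like cluster 24 and 0.573 in the cycling cluster 11 for Bambi, 2.41 in the macrophage-like cluster 4 and 0.435 in the preameloblast-like cluster 19 for Smad6, and 4.22 in cluster 17 and 0.541 in the fibroblast-like cluster 7 for Smad7. For Fst they were 5.0 in the odontoblast-like cluster 22 and 0.0979 in the endothelium-like cluster 15, the latter with its control counts all in 1 cell. The lineage cluster 20 held 98.7% of ameloblast cluster 5, where Bmp2 had fewer than 20 counts, at 1.83 control and 1.12 mutant CPM. The lineage cluster 12 held 177 mutant cells, among them the 91 cells of ameloblast cluster 8, which the control library lacked. Their part in its Bmp7 ratio was not tested. Over the alternatives that ratio ranged from 1.34, under the limit, to 2.21, and Bmp7 was not called in ameloblast cluster 1.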

How the results depend on the processing

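No paired analysis was possible because each group is 1 library, and for the same reason no replicate could be left out. Of the 29 calls in the ameloblast clusters 24 were kept with TMM factors and 24 with median-of-ratios factors, 20 under stricter cell limits, 17 with cells thinned to 1000 UMIs, 29 without transcripts of at least 1%, 24 without the deepest 5% of cells and 27 without the cell with the most counts. The number called higher in these clusters ranged from 18 to 26, and that called lower was 2 with thinned cells. Of the 59 calls in clusters of all cells 54 were kept with TMM factors and 28 with thinned cells, which left 7 lower, and 20 higher calls lay outside the lineage. Thinning leaves fewer cells and counts.

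Directions turned with cells thinned to 1000 UMIs for Bmp2 in ameloblast cluster 2 (0.358) and, among all cells, for Bmp2 in cluster 20 (0.561) and cluster 24 (0.448; 0.532 as a mean of per-cell CPM), Fst in cluster 7 (1.46), Bambi in cluster 9 (0.934) and Bambi in cluster 18 (1.52; 1.35 without the 5% of cells with the most UMIs). With the control library's cluster shares in both libraries the ratio of Fst over the whole lineage was 1.17. Apart from the construction of each alternative, the cause was not tested. Depth limits Fst and Bmp2 most, which had fewer than 20 counts in 5 and in 1 of the 8 ameloblast clusters.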

Other observations

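Ameloblast cluster 8, led by Dcpp2, Ces1d and Grp, held 91 mutant and 0 control cells, so the BMP genes have levels there but no ratio. Id3 stood at 915.0 CPM, Id1 at 394.0 CPM, Id2 at 178.4 CPM, Bambi at 102.8 CPM, Smad7 at 82.6 CPM and Bmp7 at 51.4 CPM. Smad6 stood at 25.2 CPM and Bmp4 at 16.1 CPM. Among the mutant library's lineage clusters this Bambi level was the lowest. Bmp2 had 9 counts, 77.8% of them in 1 cell, and Fst had 0. All 91 cells fell in all-cell cluster 12, together with most of ameloblast cluster 1.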
